A study of Rattus norvegicus with 4 samples.

Results

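The genes described here encode 10 surface receptors that set how strongly a T cell responds once its antigen receptor is engaged: ICOS, CTLA4, CD28, PDCD1, CD27, TIGIT, LAG3, HAVCR2, TNFRSF4 and CD69. They were chosen by gene symbol, and all 10 of the 10 listed symbols had 1 feature each among the 27832 features of the deposited expression table. RNA was taken from the middle ear mucosa of SD (Sprague-Dawley) rats 1 week after inoculation of the right middle ear. The inoculum was methicillin-resistant Staphylococcus aureus (MRSA), Pseudomonas aeruginosa (PA) or a mixed culture of both species (MRSA + PA), each as 50 µL of suspension with 10000000 CFU (colony-forming units), or media only as the vehicle control. Each condition is represented by 1 library, and whether its RNA came from a single animal or a pool is not given in the sources used here. No difference between libraries can therefore be set against a spread between replicates, and no test was made. Levels are FPKM, sequenced fragments corrected for transcript length and for the number of mapped fragments. Log2 differences were computed between 2 libraries with 0.1 FPKM added to either level, and a difference was counted from 2-fold upward.

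T cells need a second signal besides the antigen receptor. CD28 gives it by binding CD80 and CD86 on antigen-presenting cells, CTLA4 competes for the same ligands and dampens the response, and ICOS, a relative of CD28 that appears after activation, binds ICOSLG and sustains helper T cells. CD27 and TNFRSF4 (OX40) are costimulators of the TNF receptor superfamily, whereas PDCD1 (PD-1), TIGIT, LAG3 and HAVCR2 (TIM-3) are inhibitory receptors that restrain activated T cells. CD69 is an early activation antigen that keeps lymphocytes in tissue by opposing the egress receptor S1PR1. None of these receptors is restricted to T cells. HAVCR2 is also carried by macrophages and dendritic cells, CD27 by B cells, and CD69 by many activated leukocytes.

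CD28, CTLA4 and ICOS are neighbours on rat chromosome 9, and the table lists them as consecutive features on the plus strand. Their features lay at 67358679 to 67387835 (CD28), 67509615 to 67516363 (CTLA4) and 67563749 to 67599776 (ICOS) on chromosome 9, in coordinates whose rat assembly is not named in the sources used here. TNFRSF4 lay on chromosome 5, LAG3, CD27 and CD69 on chromosome 4, HAVCR2 on chromosome 10 and TIGIT on chromosome 11. PDCD1 also lay on chromosome 9, in a feature that spanned 273312 bp and overlapped 4 other features, 1 of them on the same strand, so its value may hold fragments of other genes. The LAG3 feature overlapped 1 unnamed feature on the opposite strand, and the other 8 overlapped none.

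RefSeq promoters of GRCr8 were found for 8 of the 10 genes. The 250 bases before the transcription start are shown for the 3 neighbours on chromosome 9 and for TNFRSF4, since CD28, ICOS and TNFRSF4 were the members with the largest differences upward in PA against MRSA. Capitals mark matches, on either strand, to GGAAA, which is the core of NFAT sites, to the RUNX motif TGTGGT or to the motif TATAAA that TBP binds.
Cd28 (chr9:69660066-69660315, plus strand): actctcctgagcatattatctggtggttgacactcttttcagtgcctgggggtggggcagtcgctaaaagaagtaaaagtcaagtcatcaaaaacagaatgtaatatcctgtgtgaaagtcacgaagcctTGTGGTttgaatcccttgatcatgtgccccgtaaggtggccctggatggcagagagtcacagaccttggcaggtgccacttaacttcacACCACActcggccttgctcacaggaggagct
Ctla4 (chr9:69813171-69813420, plus strand): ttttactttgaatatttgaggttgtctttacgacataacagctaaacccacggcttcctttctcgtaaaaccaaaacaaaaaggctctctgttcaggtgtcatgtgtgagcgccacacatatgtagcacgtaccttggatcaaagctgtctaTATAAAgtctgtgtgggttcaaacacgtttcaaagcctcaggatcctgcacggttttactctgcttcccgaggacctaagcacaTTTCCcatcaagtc
Icos (chr9:69877549-69877798, plus strand): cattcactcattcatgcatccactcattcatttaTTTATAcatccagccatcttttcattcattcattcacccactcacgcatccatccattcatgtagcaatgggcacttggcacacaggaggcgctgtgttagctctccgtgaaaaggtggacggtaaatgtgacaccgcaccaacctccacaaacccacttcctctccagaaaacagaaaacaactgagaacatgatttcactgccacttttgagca
Tnfrsf4 (chr5:171888884-171889133, plus strand): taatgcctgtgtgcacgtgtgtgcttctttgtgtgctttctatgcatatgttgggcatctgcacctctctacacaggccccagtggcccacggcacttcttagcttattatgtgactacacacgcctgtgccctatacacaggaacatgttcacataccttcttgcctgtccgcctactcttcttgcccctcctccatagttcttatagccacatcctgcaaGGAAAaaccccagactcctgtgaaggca
Among all 33469 promoter windows of this length, 56.9% held GGAAA, 14.5% TGTGGT, 12.9% TATAAA and 6.34% the AP-1 motif TGANTCA. Among the 8 members with a promoter, 5 held GGAAA, 3 TGTGGT, 2 TATAAA and 0 TGANTCA. CD28 held 2 matches to TGTGGT, whereas ICOS held neither GGAAA nor TGTGGT. CTLA4 and ICOS each held a TATAAA match, at positions -98 and -216 from the transcription start. These matches describe the letters of the windows only.

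All 10 receptors were lowest in the media library, and 9 of them exceeded it by 2-fold or more with every inoculum, HAVCR2 being the exception. The 2-fold limit was passed upward by 9 members with MRSA, 9 with PA and 10 with MRSA + PA, and downward by 0 with any inoculum. With 1 FPKM added in place of 0.1 the upward counts were 6, 7 and 9, without CD28 (log2 0.73), TIGIT (0.74) and TNFRSF4 (0.998) with MRSA, PDCD1 (0.98) and CD27 (0.75) with PA and CD28 (0.87) with MRSA + PA, besides HAVCR2 with the single inocula. Background shares were computed only at 2-fold and with 0.1 FPKM added. As background, 15944 features averaged 1 FPKM or more over the 4 libraries, all 10 members among them. Of these features, 8.47% passed the limit upward with MRSA, 10% with PA and 7.78% with MRSA + PA, and 4.95%, 7.80% and 7.83% passed it downward. Among the features averaging 1 to 25 FPKM, a range that holds all 10 members, 8.94%, 11.2% and 8.10% passed it upward. With all 3 inocula, 5.12% of the background features passed the limit upward, and 39.7% were lowest in media. PA gave the highest level for 4 members (ICOS, CD28, TNFRSF4 and, by only 1.07-fold over MRSA, CTLA4) and for 31.6% of the background features. MRSA gave it for 4 members and MRSA + PA for 2, and no background share was computed for these. The members' median log2 difference from media was 2.22 with MRSA, 2.299 with PA and 2.16 with MRSA + PA. The median over the background features was 0.05, 0.07 and 0.05. The 3 comparisons share the media library, so a low value there raises all of them. In bulk tissue, more T cells and more receptor RNA per T cell cannot be told apart. The summed FPKM of the members was 66.6 with MRSA, 82.2 with PA and 62.6 with MRSA + PA, against 14.3 in media.

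**Figure D1:**
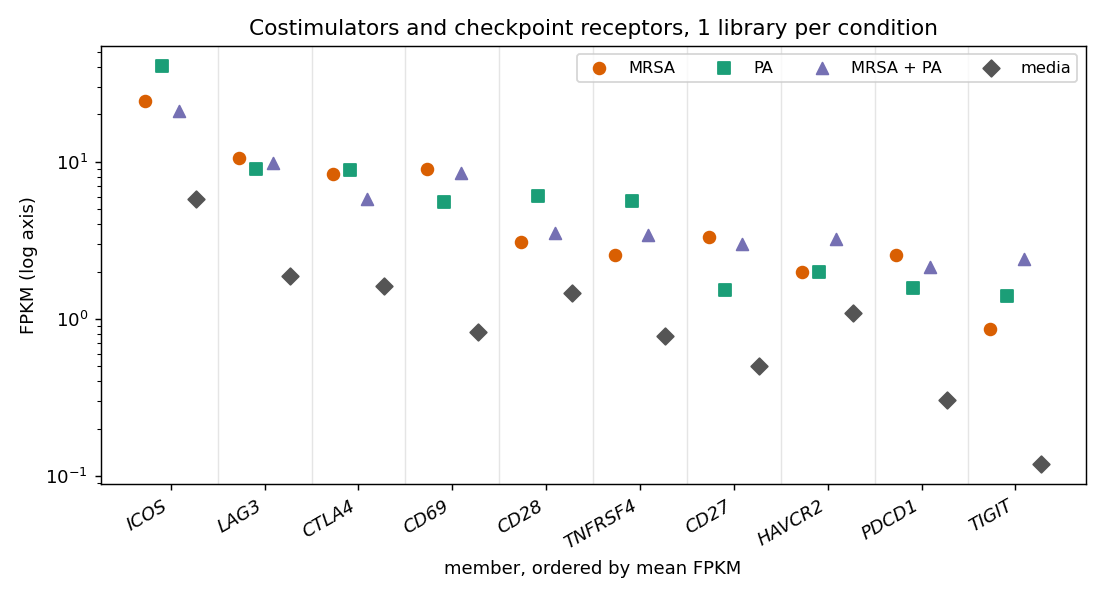
FPKM (log axis) of the 10 receptor genes in the MRSA, PA, MRSA + PA and media libraries, 1 point per library. The media point is the lowest for each gene. ICOS has the highest level in every library, and the order of the inoculated libraries differs between genes.

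Epithelial and leukocyte markers were present in every library. The epithelial markers EPCAM (222 to 266 FPKM) and KRT8 (76.1 to 111 FPKM) were nearly level, but of the 9 epithelial markers 0, 3 and 1 exceeded media by 2-fold or more with MRSA, PA and MRSA + PA, and 1, 1 and 0 lay as far below it. KRT5 of basal cells had 95.4, 393 and 175 FPKM with the 3 inocula, against 83.6 in media, MUC5B of secretory cells 16.5, 86.1 and 5.40, against 8.82, and BPIFA1 of secretory cells 11118, 7472 and 13362, against 25725. The CD3 chains, which carry the signal of the T cell antigen receptor, averaged 35.8 FPKM with MRSA, 32.3 with PA and 35.3 with MRSA + PA, against 5.52 in media. Of 12 T cell markers, 11 exceeded media by 2-fold or more with MRSA, 12 with PA and 11 with MRSA + PA. Of 5 neutrophil markers averaging 1 FPKM or more, 2 passed 2-fold with each inoculum, CSF3R (9.04, 30.4 and 10.1 FPKM, against 2.25 in media) and CXCR2 (4.35, 15.2 and 5.89, against 1.37), both highest with PA, and the sum of all 6, was 522, 579 and 538 FPKM, against 368 in media. Without S100A8 and S100A9, which epithelium also makes, that sum was 19.0, 48.7 and 21.7 FPKM, against 8.14 in media. The skeletal muscle markers summed to 1857 FPKM with MRSA, 2.56 with PA and 0.768 with MRSA + PA, against 5035 in media. The part of muscle, epithelial or neutrophil content in the members' values was not tested.

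Of the CD28 family costimulators, ICOS was the most abundant receptor of the 10 and CD28 one of those nearest to media. ICOS had 24.3 FPKM with MRSA, 40.7 with PA and 20.9 with MRSA + PA, against 5.75 in media. These are 4.23-fold, 7.08-fold and 3.64-fold the media level, and the PA library stood above both other inoculated libraries. CD28, the costimulator of resting T cells, had 3.07 FPKM with MRSA, 6.01 with PA and 3.50 with MRSA + PA, against 1.46 in media. The difference of CD28 from media was 2.11-fold in MRSA, close to the 2-fold limit, and 4.12-fold in PA. It dropped below 2-fold in MRSA under median-of-ratios scaling (log2 0.97), under equal FPKM sums (0.77) and with 1 FPKM added (0.73). ICOS held 36.5% of the members' summed FPKM with MRSA, 49.5% with PA and 33.4% with MRSA + PA, against 40.2% in media.

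CTLA4, the inhibitory counterpart of CD28, had 8.32 FPKM with MRSA, 8.88 with PA and 5.79 with MRSA + PA, against 1.61 in media. Its level was thus 5.17-fold, 5.52-fold and 3.60-fold that of media, and the MRSA and PA libraries lay within 1.07-fold of each other. CTLA4 exceeded CD28 in all 3 inoculated libraries and lay near it in media, where CD28 was at 1.46 FPKM.

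The costimulators of the TNF receptor superfamily went different ways among the inocula. TNFRSF4, a receptor of recently activated T cells and regulatory T cells, had 2.55 FPKM with MRSA, 5.62 with PA and 3.42 with MRSA + PA, against 0.778 in media. Its highest level was in PA, 7.22-fold media, and its lowest inoculated level was in MRSA, 3.28-fold media. CD27, a receptor of naive and memory lymphocytes, had 3.32 FPKM with MRSA, 1.52 with PA and 2.98 with MRSA + PA, against 0.501 in media. Here PA was the lowest of the inoculated libraries, at 3.03-fold media, and MRSA the highest, at 6.62-fold. B cell and plasma cell markers, whose cells can carry CD27, summed to 559 FPKM with MRSA, 521 with PA and 500.4 with MRSA + PA, against 319 in media, with none of the 9 matched markers at 0. Their part in the CD27 level was not tested.

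The inhibitory receptors PDCD1, LAG3 and TIGIT were above media with each inoculum, and HAVCR2 was nearer to it. LAG3, which binds MHC class II, had 10.6 FPKM with MRSA, 9.05 with PA and 9.85 with MRSA + PA, against 1.89 in media. LAG3 was the most even of these receptors, at 5.62-fold, 4.80-fold and 5.22-fold the media level. PDCD1, which binds CD274 and PDCD1LG2, had 2.55 FPKM with MRSA, 1.57 with PA and 2.12 with MRSA + PA, against 0.306 in media. The MRSA library was highest for PDCD1 and the PA library lowest among the inoculated ones, within the limit set by its wide feature. Without PDCD1 the counts were 8, 8 and 9 members at least 2-fold above media.

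TIGIT, which competes with CD226 for the ligand PVR, had the lowest mean of the 10 members and, in MRSA + PA, the largest ratio to media. It had 0.863 FPKM with MRSA, 1.39 with PA and 2.39 with MRSA + PA, against 0.119 in media. The MRSA + PA library was the highest, at 20.1-fold the media level. The log2 difference of TIGIT in MRSA + PA was 3.51, but 1.60 with 1 FPKM added and 4.22 with 0.01 FPKM added, so its size rests on a media level close to the added constant. HAVCR2, which binds LGALS9 and CEACAM1, had 2.00 FPKM with MRSA, 1.97 with PA and 3.20 with MRSA + PA, against 1.09 in media. Its log2 difference from media was 0.82 in MRSA and 0.81 in PA, under the 2-fold limit, and 1.48 in MRSA + PA. Of 8 matched macrophage and monocyte markers, 7 had a mean of at least 1 FPKM, and 4, 3 and 2 of these exceeded media by 2-fold or more with MRSA, PA and MRSA + PA. The macrophage markers summed to 508 FPKM with MRSA, 388 with PA and 355 with MRSA + PA, against 192 in media, with MARCO listed at 0 in all but MRSA + PA. LYZ2, which has 2 features of that name, was the marker at least 2-fold lower in PA and in MRSA + PA, and without it the sums were 402 FPKM with MRSA, 387 with PA and 354 with MRSA + PA, against 183 in media, with 3, 3 and 2 markers at least 2-fold higher and 0 lower. The 7 matched dendritic cell markers summed to 79.8 FPKM with MRSA, 73.7 with PA and 77.3 with MRSA + PA, against 50.9 in media, with CD209 at 0 in media alone. The part of either cell type in the HAVCR2 level was not tested.

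CD69, the early activation antigen, had 8.999 FPKM with MRSA, 5.52 with PA and 8.47 with MRSA + PA, against 0.821 in media. The MRSA and MRSA + PA libraries lay close together, at 10.97-fold and 10.32-fold the media level, and PA lay lower, at 6.73-fold. The log2 difference of CD69 from media was the largest of the 10 members in MRSA (3.30). Only 1.0% of the background features lay higher there.

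**Figure D2:**
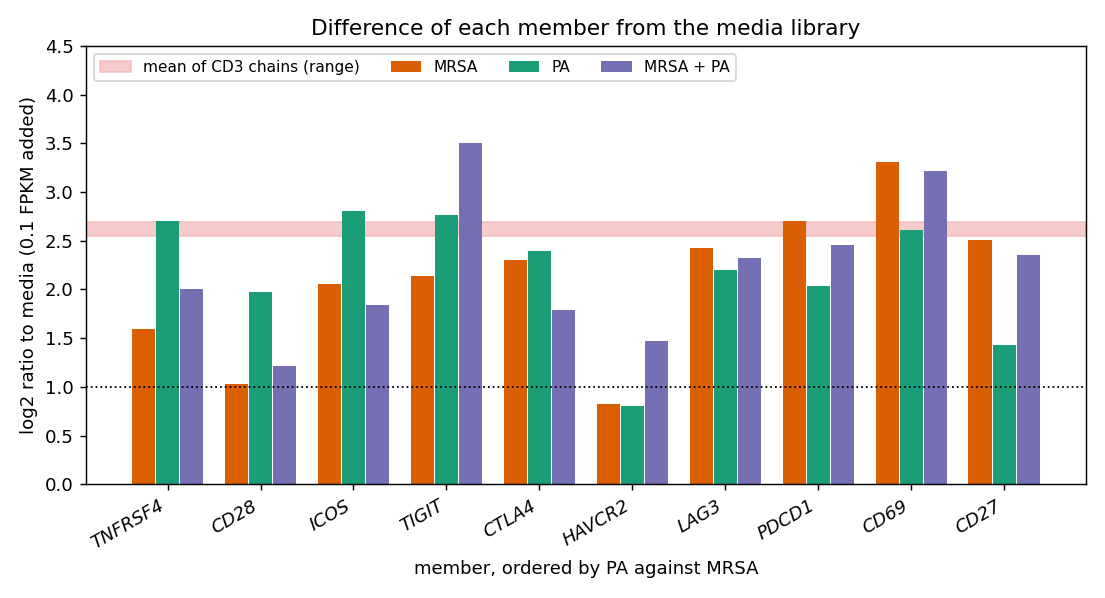
Log2 ratio of each receptor gene to media (0.1 FPKM added) in the MRSA, PA and MRSA + PA libraries, ordered by the difference between PA and MRSA. The dotted line marks 2-fold and the band the range of the mean CD3 chain level over the 3 libraries (2.55 to 2.70, nothing added). TNFRSF4, CD28 and ICOS on the left have their highest bar in PA, and PDCD1, CD69 and CD27 on the right their lowest.

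Set directly against each other, the PA and MRSA libraries differed by 2-fold or more for TNFRSF4 and CD27, in opposite directions. TNFRSF4 was 2.20-fold higher in PA than in MRSA (5.62 and 2.55 FPKM), and CD27 was 2.18-fold lower in PA (1.52 and 3.32 FPKM). Among the background features, 3.54% were at least 2-fold higher in PA than in MRSA and 5.03% lower. CD28 (log2 difference 0.95), ICOS (0.74) and TIGIT (0.63) lay higher in PA, and CD69 (-0.69) and PDCD1 (-0.67) lower, all under 2-fold. CTLA4 (0.09), HAVCR2 (-0.02) and LAG3 (-0.23) lay closest to equal, and the sides of HAVCR2 and LAG3 changed under equal FPKM sums (0.22 and 0.02). At a 1.5-fold limit, 4 members were higher in PA and 3 lower, with no share over all features computed at that limit. With 1 FPKM added, 0 members differed by 2-fold in either direction.

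**Figure D3:**
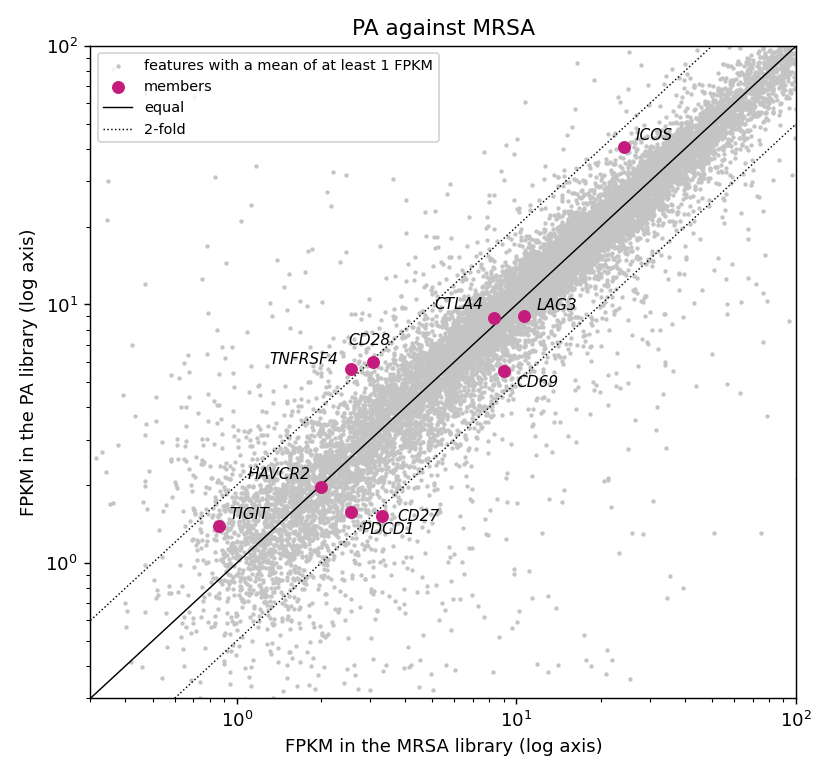
FPKM in the PA library (vertical) against FPKM in the MRSA library (horizontal), both on log axes, for the 10 receptor genes (labelled) and for all features averaging 1 FPKM or more (grey). The solid line marks equal levels and the dotted lines 2-fold. TNFRSF4 lies above the upper dotted line and CD27 below the lower one.

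With the mixed inoculum, all 10 members lay within 2-fold of PA and 9 within 2-fold of MRSA. Set against MRSA, 1 member was at least 2-fold higher in MRSA + PA, namely TIGIT (2.39 and 0.863 FPKM, 2.77-fold), and 0 were lower. Of the background features, 1.61% were higher and 5.73% lower. The other 9 members lay within 2-fold, with log2 differences of -0.51 for CTLA4 to 0.65 for HAVCR2. ICOS, PDCD1, CD27, LAG3 and CD69 lay slightly below MRSA, by 0.09 to 0.26 on the log2 scale, but slightly above it under equal FPKM sums. Set against PA, 0 members passed the limit in either direction, beside 2.50% of the background features higher and 4.27% lower. ICOS lay furthest below PA (20.9 in MRSA + PA and 40.7 FPKM in PA, log2 -0.96) and CD27 furthest above it (2.98 and 1.52 FPKM, log2 0.93). CD28 (-0.76), TNFRSF4 (-0.70) and CTLA4 (-0.61) also lay below PA, and TIGIT (0.74), HAVCR2 (0.67), CD69 (0.61), PDCD1 (0.41) and LAG3 (0.12) above it. The side of LAG3 changed under equal sums over features of at least 300 bp (-0.01).

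A level divided by the mean of CD3D, CD3E and CD3G in the same library, with nothing added, does not depend on library scaling. The CD3 mean was 6.48-fold media with MRSA, 5.86-fold with PA and 6.41-fold with MRSA + PA, and most receptors differed from media by less than that. Relative to CD3, 4 members were above media with MRSA, 4 with PA and 3 with MRSA + PA, with median log2 differences of -0.27, -0.14 and -0.42. Against a denominator of CD2, LCK, CD3E and ZAP70 (geometric mean) these medians were 0.31, 0.26 and 0.21, so the side of media on which the members lie as a group depends on the T cell genes chosen.

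The ratios of single receptors to CD3 differed between the inocula. ICOS was at 68.0% of the CD3 mean with MRSA, 126% with PA and 59.1% with MRSA + PA, against 104% in media. TNFRSF4 was at 7.14% with MRSA, 17.4% with PA and 9.68% with MRSA + PA, against 14.1% in media. CD28 was at 8.60% with MRSA, 18.6% with PA and 9.92% with MRSA + PA, against 26.4% in media. These 3 costimulators had their highest inoculated ratio in PA, as did the inhibitory CTLA4 (27.5%). The costimulator CD27 had its lowest inoculated ratio there (4.70%). CD69 was at 25.2% with MRSA, 17.1% with PA and 24.0% with MRSA + PA, against 14.9% in media. TIGIT was at 2.41% with MRSA, 4.2999% with PA and 6.76% with MRSA + PA, against 2.15% in media. CD69 and TIGIT were above the media ratio in all 3 inoculated libraries, also with the other denominator. HAVCR2 and CD28 were below it in all 3 with both denominators. For TIGIT with MRSA the log2 difference was only 0.17, on a media level of 0.119 FPKM. With 0.1 FPKM added, TIGIT with MRSA was 2.14 (log2) above media, under the CD3 difference of 2.70. HAVCR2 was at 5.59% with MRSA, 6.11% with PA and 9.05% with MRSA + PA, against 19.7% in media. LAG3 kept within 27.9% to 34.2% in the 4 libraries.

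**Figure D4:**
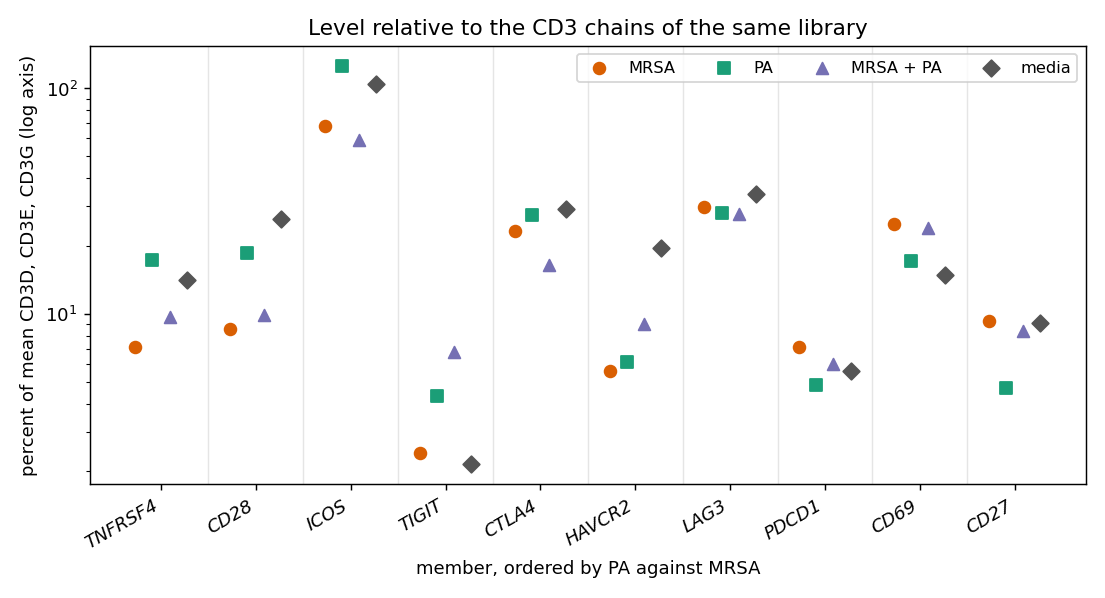
Level of each receptor gene as a percentage of the mean FPKM of CD3D, CD3E and CD3G in the same library (log axis), for MRSA, PA, MRSA + PA and media. Among the inoculated libraries, the PA point is the highest for TNFRSF4, CD28, ICOS and CTLA4 and the lowest for CD27, CD69 and PDCD1. HAVCR2, CD28, CTLA4 and LAG3 are highest in media.

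Genes of T cell subsets that carry these receptors differed between the inocula as well. FOXP3, the transcription factor of regulatory T cells, had 1.25 FPKM with MRSA, 2.13 with PA and 1.21 with MRSA + PA, against 0.537 in media. IL2RA, the high-affinity interleukin-2 receptor chain of regulatory and activated T cells, had 4.03 FPKM with MRSA, 6.005 with PA and 3.82 with MRSA + PA, against 1.73 in media. TNFRSF18 (GITR), a costimulator of regulatory T cells, had 1.86 FPKM with MRSA, 3.49 with PA and 2.96 with MRSA + PA, against 0.686 in media. All 3 genes were highest in PA, as were ICOS, CTLA4, CD28 and TNFRSF4. Of the 7 regulatory T cell markers, 5 had a mean of at least 1 FPKM and 3 of these exceeded media by 2-fold or more with each inoculum. BCL6, the transcription factor of follicular helper T cells that is also made in epithelium and B cells, had 16.8 FPKM with MRSA, 29.7 with PA and 17.2 with MRSA + PA, against 16.2 in media. CXCR5, the homing receptor of follicular helper T cells and B cells, had 2.14 FPKM with MRSA, 2.32 with PA and 1.52 with MRSA + PA, against 0.517 in media. SH2D1A (SAP), the adaptor of SLAM receptors, had 9.20 FPKM with MRSA, 6.71 with PA and 10.6 with MRSA + PA, against 2.32 in media. MAF, a transcription factor of helper T cells and macrophages, had 49.6 FPKM with MRSA, 45.2 with PA and 46.9 with MRSA + PA, against 37.7 in media. Of these 4 follicular helper markers with a mean of at least 1 FPKM, BCL6 and CXCR5 were highest with PA, SH2D1A and MAF were lowest there among the inocula, and 2 exceeded media by 2-fold or more with each inoculum.

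Cytotoxic lymphocyte genes had another order. CD8A, the coreceptor of cytotoxic T cells, had 27.0 FPKM with MRSA, 11.1 with PA and 20.3 with MRSA + PA, against 4.67 in media. The 12 NK and cytotoxic markers summed to 117 FPKM with MRSA, 41.6 with PA and 130.4 with MRSA + PA, against 38.9 in media, with GZMB at 0 in media alone. Of the 10 with a mean of at least 1 FPKM, 9 exceeded media by 2-fold or more with MRSA, 1 with PA and 10 with MRSA + PA. CD27, PDCD1 and CD69 were likewise lower in PA than in both other inoculated libraries. So were LAG3 and HAVCR2, by only 1.17-fold and 1.01-fold below MRSA. The share of background features lowest in PA among the inoculated libraries was not computed. The part of subset shares in the members' levels was not tested. Of the markers of chronically stimulated T cells, EOMES, a transcription factor of NK cells and memory CD8 T cells, had 2.50 FPKM with MRSA, 0.515 with PA and 2.46 with MRSA + PA, against 0.616 in media. TOX, a transcription factor of chronically stimulated T cells, had 2.60 FPKM with MRSA, 2.89 with PA and 2.70 with MRSA + PA, against 2.14 in media, with 1 or 2 of the 5 filtered genes of this list past 2-fold in each library.

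Most listed ligands averaging 1 FPKM or more differed less from media than the receptors did. MHC class II genes, whose products LAG3 binds, were not among the listed ligands. Of 14 ligand genes, 11 had a mean of at least 1 FPKM, and 2 of these exceeded media by 2-fold or more with MRSA, 2 with PA and 3 with MRSA + PA, with 0 lower. Their median log2 difference was 0.18 with MRSA, 0.41 with PA and 0.34 with MRSA + PA. The 3 ligands averaging under 1 FPKM were left out of these values. Among them, PDCD1LG2 differed from media by 3.07, 2.18 and 2.77 (log2) with MRSA, PA and MRSA + PA. CD70 differed by 2.19, 1.41 and 2.70, and TNFSF4 by 0.72, 1.86 and 1.11. CD80, a ligand of CD28 and CTLA4 on activated antigen-presenting cells, had 4.44 FPKM with MRSA, 4.27 with PA and 3.16 with MRSA + PA, against 1.00 in media. CD86, the other ligand of that pair, had 17.3 FPKM with MRSA, 12.4 with PA and 16.6 with MRSA + PA, against 7.59 in media. CD80 was past 2-fold with each inoculum and CD86 in MRSA and MRSA + PA. ICOSLG, the ligand of ICOS, was nearly level, with 47.4 FPKM with MRSA, 48.9 with PA and 50.5 with MRSA + PA, against 45.8 in media. ICOSLG thus lay above the FPKM of ICOS in every library, by the smallest margin in PA.

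The ligands of the inhibitory receptors were mostly near media too. CD274 (PD-L1), a ligand of PDCD1, had 9.34 FPKM with MRSA, 7.11 with PA and 7.88 with MRSA + PA, against 5.31 in media. PDCD1LG2, its second ligand, had 1.06 FPKM with MRSA, 0.524 with PA and 0.839 with MRSA + PA, against 0.0380 in media, with a mean under 1 FPKM. PVR, the ligand of TIGIT, had 15.3 FPKM with MRSA, 16.9 with PA and 19.6 with MRSA + PA, against 12.4 in media. LGALS9, a ligand of HAVCR2 with 2 features of that name, stayed between 20.7 and 26.6 FPKM in all 4 libraries. FGL1, a ligand of LAG3, had 2.78 FPKM with MRSA, 7.01 with PA and 4.45 with MRSA + PA, against 2.14 in media, and was the ligand furthest above media in PA among those with a mean of at least 1 FPKM apart from CD80. TNFSF4, the ligand of TNFRSF4, had 0.119 FPKM with MRSA, 0.381 with PA and 0.188 with MRSA + PA, against 0.0328 in media. CD70, the ligand of CD27, had 0.355 FPKM with MRSA, 0.166 with PA and 0.548 with MRSA + PA and was listed at 0 in media. Both TNF family ligands stayed under 1 FPKM in every library, where TNFSF4 had its highest level in PA and CD70 its lowest inoculated level there. HMGB1 and CEACAM1 have 35 and 7 features of the same name, so their values are uncertain and are not described further.

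**Figure D5:**
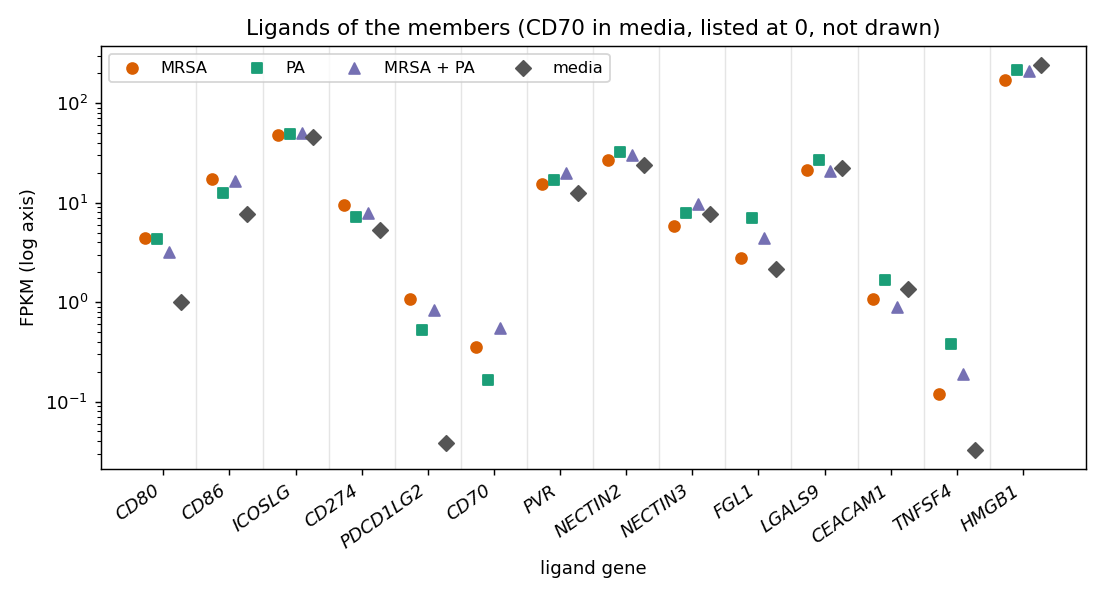
FPKM (log axis) of the 14 ligand genes in the MRSA, PA, MRSA + PA and media libraries, 1 point per library. ICOSLG lies between 45.8 and 50.5 FPKM in all 4 libraries, and CD80 is lowest in media. CD70 is listed at 0 in media and has no point there.

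Other costimulators and checkpoint receptors of the same kind were also mostly above media. Of 17 matched genes, 14 had a mean of at least 1 FPKM, and 12 of these exceeded media by 2-fold or more with MRSA, 12 with PA and 11 with MRSA + PA. Their median log2 differences were 1.44, 1.61 and 1.42. TNFRSF14 (HVEM), which binds BTLA and CD160, had 13.6 FPKM with MRSA, 10.9 with PA and 11.96 with MRSA + PA, against 2.13 in media. SLAMF6, a self-binding receptor of T and NK cells, had 12.2 FPKM with MRSA, 5.15 with PA and 6.39 with MRSA + PA, against 1.11 in media. SLAMF1, its relative, had 2.39 FPKM with MRSA, 3.42 with PA and 2.24 with MRSA + PA, against 0.495 in media. SLAMF6 was thus highest in MRSA and SLAMF1 in PA. CD244, an NK and T cell receptor for CD48, had 7.95 FPKM with MRSA, 9.76 with PA and 5.94 with MRSA + PA, against 3.30 in media.

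The signalling partners of the receptors were in part above media and in part near it. Of 14 genes, 7 exceeded media by 2-fold or more with MRSA, 6 with PA and 6 with MRSA + PA, and 0, 0 and 1 lay as far below it. The gene below was PRKCQ (PKC-theta), a kinase of T cells downstream of CD28 that muscle also makes, with 5.93 FPKM with MRSA, 4.30 with PA and 3.54 with MRSA + PA, against 8.04 in media. VAV1, a leukocyte exchange factor downstream of CD28, had 32.9 FPKM with MRSA, 29.1 with PA and 29.5 with MRSA + PA, against 9.88 in media. PTPN6 (SHP-1), a leukocyte phosphatase used by inhibitory receptors, had 60.1 FPKM with MRSA, 49.3 with PA and 59.5 with MRSA + PA, against 27.9 in media. PTPN11 (SHP-2), the phosphatase that PDCD1 recruits and that most cells make, stayed between 30.7 and 35.4 FPKM. PTPN11 and the PI3K subunit gene PIK3R1, with 39.3 to 50.3 FPKM, were highest in media.

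Among genes of activation and lymphocyte retention around CD69, CXCR6 and ITGAE were above media and KLF2 and EGR1 below it. CXCR6, which guides T cells into peripheral tissue, had 41.0 FPKM with MRSA, 34.4 with PA and 34.7 with MRSA + PA, against 7.39 in media. ITGAE (CD103), which binds E-cadherin of epithelium, had 13.6 FPKM with MRSA, 15.0 with PA and 12.9 with MRSA + PA, against 4.90 in media. S1PR1, the egress receptor that CD69 opposes and that endothelium also makes, had 42.7 FPKM with MRSA, 37.99 with PA and 56.5 with MRSA + PA, against 59.9 in media, all within 2-fold. KLF2, the transcription factor behind S1PR1 in T cells and also an endothelial gene, had 44.5 FPKM with MRSA, 25.2 with PA and 33.5 with MRSA + PA, against 70.0 in media. Of the 9 genes with a mean of at least 1 FPKM, 3 exceeded media by 2-fold or more with MRSA, 2 with PA and 3 with MRSA + PA, and 1, 2 and 1 lay as far below it. Those above were CXCR6 and ITGAE, joined by RGS1 with MRSA and MRSA + PA. Those below were EGR1 with MRSA, EGR1 and KLF2 with PA, and KLF2 with MRSA + PA. EGR1 had 159 FPKM with MRSA, 121 with PA and 185 with MRSA + PA, against 319 in media.

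The features most like each member over the 3 inoculated libraries were ranked by the root mean square distance of their log2 differences from media, among the 10857 named features that averaged 5 FPKM or more. CXCR6 was nearest to LAG3 (0.07), followed by TFEC (0.10), a transcription factor of macrophages, and CD247 (0.12), the CD3 zeta chain. CD247 was also nearest to PDCD1 (0.13), with TNFRSF14 second (0.16). CXCL13, an attractant of B cells and follicular helper T cells, was nearest to ICOS (0.09). CXCL10, a chemokine that interferons induce, was nearest to CD69 (0.24), and the secreted protease inhibitor SLPI to CD27 (0.05), followed by CD8A (0.19). DUSP4, a MAP kinase phosphatase, was nearest to HAVCR2 (0.05), and SCGB1A1, the club cell secretory protein, to TNFRSF4 (0.08). Sialoadhesin (SIGLEC1) of macrophages was nearest to CTLA4 (0.11), MCTP2 to CD28 (0.14) and TAC3 to TIGIT (0.27). Of the 30 choices, 3 for each member, 16 were shared when features down to 1 FPKM were admitted and 2 when 1 FPKM was added in place of 0.1. Among the members, PDCD1 and LAG3 were the closest pair (0.20) and HAVCR2 and CD69 the most distant (2.04).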

How the data were processed

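RNA of rat middle ear mucosa was sequenced in 4 libraries, 1 each for MRSA, PA, MRSA + PA and media, grouped by their source names. The deposited table gives FPKM per gene, made by the authors from reads mapped with STAR 2.3.0e and quantified with Cufflinks 2.1.1 per the submitters' processing notes. The paper's methods add a mask on non-coding regions, multi-read correction and fragment bias correction. They name the human reference genome and Ensembl release 72 for mapping and annotation, without a rat assembly. The table's chromosomes and strands are those of rat RefSeq GRCr8 for all 8 members matched there. The paper gives read totals only as a range over the samples, and fragment counts per gene were not recovered from these bias-corrected FPKM, so the values carry no interval.

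The deposited comparison tables hold the authors' own log2 ratios, p-values and q-values and repeat values of the same libraries in 12 columns. None of these was used.

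Members were matched on symbol (any case), taking the feature with the highest mean FPKM. Log2 ratios were taken after 0.1 FPKM was added, over all 6 pairs of libraries, and counted from 2-fold. Ratios to the T cell denominators were taken with nothing added. The background is the share past the same fold among features averaging 1 FPKM or more. The arithmetic was tested on simulated data. All members are named, together with their ligands, the CD3 chains, the 3 most alike features of each member, and in each of the other lists up to 4 genes by mean level and 3 by difference from media. CD8A is named as a feature alike to CD27. The members, gene lists and rules were chosen with earlier results of these data known. Alternatives were 1 or 0.01 FPKM added, median-of-ratios scaling, equal FPKM sums, all rows of a symbol summed, a 1.5-fold limit, minimum means of 1 or 5 FPKM and another T cell denominator. Leaving out PDCD1, equal sums over features of at least 300 bp, and marker sums without LYZ2 or without S100A8 and S100A9, were added after the data were seen. Python 3.11.15, numpy 2.4.6, pandas 2.3.3 and matplotlib 3.10.9 were used.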

Additional observations from a re-analysis of the deposited data

Results flagged for a closer look

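For 3 receptors the level relative to the CD3 chains lay on opposite sides of media in different inoculated libraries, with both T cell denominators, and for 2 listed genes averaging 1 FPKM or more the level itself was at least 2-fold above media in one inoculated library and at least 2-fold below it in another. Each value comes from 1 library per condition, and the difference between inocula was not tested. ICOS relative to CD3 differed from media by -0.62 (log2) with MRSA, 0.27 with PA and -0.82 with MRSA + PA. With the other denominator its difference with MRSA was only -0.04. TNFRSF4 relative to CD3 differed from media by -0.98 with MRSA, 0.30 with PA and -0.54 with MRSA + PA. Its MRSA + PA difference was 0.08 with the other denominator, on the other side of media. CD27 relative to CD3 differed from media by 0.0302 with MRSA, -0.95 with PA and -0.11 with MRSA + PA. Its MRSA + PA difference likewise changed side with the other denominator, to 0.52. These ratios had nothing added, and the side of CD27 with MRSA rests on that. With 0.1 FPKM added, CD27 with MRSA was 2.51 above media, under the CD3 difference of 2.70.

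NKG7, a granule protein of cytotoxic lymphocytes, had 18.9 FPKM with MRSA, 4.68 with PA and 22.8 with MRSA + PA, against 9.87 in media, which are log2 differences of 0.93, -1.06 and 1.20. LYZ2, a lysozyme of macrophages with 2 features of that name, had 105.9 FPKM with MRSA, 0.731 with PA and 0.850 with MRSA + PA, against 9.62 in media, with log2 differences of 3.45, -3.55 and -3.36. How reads were divided between those 2 features was not tested.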

How the results depend on the processing

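All 30 differences of a member from media stayed above 0 under every scaling. An added constant changes only the size of a difference and cannot change its side of 0. The lowest difference, 0.51 (log2, HAVCR2 in PA), was with 1 FPKM added. Adding 1 FPKM left 6, 7 and 9 members 2-fold above media with MRSA, PA and MRSA + PA, moved the medians from media to 1.48 with MRSA, 1.66 with PA and 1.39 with MRSA + PA and left 0 members 2-fold apart, higher or lower, in PA against MRSA and 0 higher in MRSA + PA against MRSA. With a mean of at least 5 FPKM, 4 members remained to be counted: 4 were 2-fold above media with each inoculum and 0 differed between PA and MRSA in either direction or were higher in MRSA + PA than in MRSA. Equal FPKM sums gave 2 members higher and 0 lower in PA against MRSA, 2 higher in MRSA + PA against MRSA and 1 higher in MRSA + PA against PA. That rescaling moved the median over the background features by itself (to -0.21 with MRSA, 0.05 with PA and 0.23 with MRSA + PA against media). Features under 300 bp held 63.1% of the FPKM sum with MRSA, 59.6% with PA and 49.2% with MRSA + PA, against 53.97% in media. Equal sums over features of at least 300 bp gave 2 higher and 0 lower in PA against MRSA and 1 lower (ICOS, log2 -1.09) in MRSA + PA against PA. At 1.5-fold, 4 members were higher and 3 lower in PA against MRSA, and 2 were higher in MRSA + PA against MRSA. In MRSA + PA against PA, 4 were higher and 4 lower. No share over all features past the limit was computed at the settings of this paragraph. The side of 0 changed for 7 of the 30 differences between inoculated libraries under equal FPKM sums. Under equal sums over features of at least 300 bp it changed for 2. These were HAVCR2 in PA against MRSA (0.09) and LAG3 in MRSA + PA against PA (-0.01). With the other T cell denominator the median ratio in MRSA + PA was 0.21. Of the most alike features, 16 of 30 were shared at a mean of at least 1 FPKM and 2 with 1 FPKM added. No paired analysis was possible because there is 1 library per condition.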
